A study of Mus musculus with 5 samples.

Results

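Tenocytes, the fibroblast-like cells that build tendon, were followed in mouse hindlimb muscle from fetal to adult life and in fetuses whose muscles could not contract. A nucleus was counted as a tenocyte nucleus when it held over 400 and under 25000 gene UMIs (unique molecular identifiers, each 1 counted RNA molecule), Ttn at under 1% of them, at least 1 UMI of Tnmd, and at least 3 of 7 tendon genes (Tnmd, Scx, Mkx, Fmod, Thbs4, Kera and Col11a1) that summed to at least 0.1% of its UMIs. This rule found 805 tenocyte nuclei among 21209 nuclei within the UMI limits and 22301 deposited barcodes, with 72 in wild type at E14.5 (E for embryonic day), 407 in wild type at E18.5, 244 in wild type at P5 (P for postnatal day), 2 in wild-type adults and 80 in the knockout (KO) at E18.5. Each nucleus gave both its RNA and its open chromatin by 10x Genomics multiome sequencing, with 1 library per group.

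All animals were C57bl6n mice, and tissue was hindlimb skeletal muscle freed of skin and bone. The wild-type groups were sampled at E14.5, E18.5, P5 and as adults, and the KO group was Cacna1s-/- at E18.5. Cacna1s encodes the voltage sensor of skeletal muscle that couples excitation to contraction, and KO muscle does not contract. The allele is lost in every cell of the KO animals and not only in muscle. The libraries pooled 56, 14, 8 and 4 wild-type hindlimbs in order of stage and 26 KO hindlimbs. Nuclei were sorted by PCM1, a centrosomal protein that coats myonuclei, and PCM1+ and PCM1- nuclei then entered the library in the same volume, so the sort helps to set every share given here. With 1 library per group, no difference between stages or between KO and wild type had a replicate check, no p-value is given for it, and the intervals cover counting error only.

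Tendon passes the force of muscle to bone through bundles of type I collagen, which tenocytes secrete and crosslink. Scx (scleraxis) and Mkx (mohawk) are transcription factors of the tendon lineage, Tnmd (tenomodulin) is a membrane glycoprotein of mature tenocytes, and Fmod (fibromodulin) and Kera (keratocan) are small proteoglycans that regulate collagen fibril growth. Thbs4 (thrombospondin 4) is a matrix glycoprotein of muscle attachments, and Col11a1 encodes a chain of the minor fibrillar collagen type XI. In the embryo, signals from muscle such as FGFs, TGF-beta and movement itself are known to maintain tendon cells.

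The promoters below are shown because open chromatin was read at them or because their genes carried a large difference between KO and wild type. Tnmd, Fmod and Thbs4 are genes of the rule, Tnc encodes the matrix glycoprotein tenascin-C, and Dusp6 encodes a phosphatase induced by FGF signaling. Each sequence is from RefSeq on GRCm38.p6 and runs 5′ to 3′ on the strand of the gene, from 250 bases before its start to 50 bases after it. The positions are chrX:133850758-133851057 on the plus strand for Tnmd, chr1:134037004-134037303 on the plus strand for Fmod, chr13:92794769-92795068 on the minus strand for Thbs4, chr4:64046966-64047265 on the minus strand for Tnc and chr10:99262981-99263280 on the plus strand for Dusp6. Capitals mark the E-box CANNTG, a motif that reads the same on both strands and that basic helix-loop-helix factors such as Scx can bind. It was found 0 times for Tnmd, 1 time for Fmod, 2 times for Thbs4, 3 times for Tnc and 1 time for Dusp6. At least 1 E-box was in 72.3% of 32851 promoters of the same length, with a median of 1, so these counts are descriptions of the letters only.
Tnmd: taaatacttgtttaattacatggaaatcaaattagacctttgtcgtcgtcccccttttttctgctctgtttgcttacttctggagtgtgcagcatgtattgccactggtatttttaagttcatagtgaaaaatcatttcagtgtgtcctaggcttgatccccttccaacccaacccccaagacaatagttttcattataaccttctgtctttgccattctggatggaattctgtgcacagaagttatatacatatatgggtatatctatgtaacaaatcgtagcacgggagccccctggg
Fmod: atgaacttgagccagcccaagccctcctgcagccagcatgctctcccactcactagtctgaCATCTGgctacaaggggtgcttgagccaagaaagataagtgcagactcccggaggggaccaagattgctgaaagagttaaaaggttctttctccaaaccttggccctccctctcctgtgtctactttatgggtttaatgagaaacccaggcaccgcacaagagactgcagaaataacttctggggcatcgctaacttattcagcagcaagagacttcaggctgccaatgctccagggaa
Thbs4: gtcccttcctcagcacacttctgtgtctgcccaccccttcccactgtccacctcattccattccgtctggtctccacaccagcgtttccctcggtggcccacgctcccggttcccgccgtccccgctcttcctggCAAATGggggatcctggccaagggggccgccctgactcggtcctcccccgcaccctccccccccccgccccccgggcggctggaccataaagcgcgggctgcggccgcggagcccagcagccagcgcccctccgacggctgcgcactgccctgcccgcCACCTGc
Tnc: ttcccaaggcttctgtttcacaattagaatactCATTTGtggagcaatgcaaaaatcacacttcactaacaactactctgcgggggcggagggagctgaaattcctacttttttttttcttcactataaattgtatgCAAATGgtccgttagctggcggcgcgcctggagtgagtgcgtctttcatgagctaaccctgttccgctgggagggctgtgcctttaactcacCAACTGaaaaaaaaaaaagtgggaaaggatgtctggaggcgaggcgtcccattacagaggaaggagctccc
Dusp6: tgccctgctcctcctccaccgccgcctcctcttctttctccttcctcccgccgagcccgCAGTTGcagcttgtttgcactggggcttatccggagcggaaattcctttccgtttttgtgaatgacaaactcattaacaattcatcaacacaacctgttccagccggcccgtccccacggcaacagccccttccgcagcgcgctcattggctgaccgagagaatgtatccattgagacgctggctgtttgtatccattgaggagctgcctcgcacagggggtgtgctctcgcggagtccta

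The target of the knockout checked the labels. Cacna1s (chr1:136052750-136119822 on GRCm38) had 2402 UMIs in the wild-type E18.5 nuclei with Ttn at 1% or more, or 188 CPM (UMIs of the gene per 1000000 UMIs), and 8 UMIs or 0.720 CPM in those of the KO. Tenocyte nuclei had 17 UMIs in wild type at E18.5 and 0 of 729060 UMIs in the KO, where a floor of 3 UMIs is 4.11 CPM and the exact 95% interval reaches 5.06 CPM. Gene UMIs summed over tenocyte nuclei were 344374 at E14.5, then 3030356 at E18.5, 1607489 at P5, 4508 in the adult library and 729060 in the KO. The median tenocyte nucleus held 3904.5, 6054, 5637.5, 2254 and 7486 UMIs in the same order. Between 17 and 47 barcodes were shared by any pair of libraries, and 1 barcode was a tenocyte nucleus in both the wild-type E18.5 and the P5 library.

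From all UMIs, tenocyte nuclei took the largest share of nuclei at E18.5 and the smallest in the adult library. They were 1.49% of nuclei at E14.5 (exact binomial 95% interval 1.17 to 1.87%), then 9.50% at E18.5 (8.64 to 10.4%), 6.50% at P5 (5.73 to 7.34%), 0.0391% in adults (0.00474 to 0.141%) and 2.48% in the KO (1.97 to 3.07%). None of these 5 intervals overlapped. The deposited KO table held 3621 barcodes before any filter. This is fewer than the nuclei that the study kept in that library, for a reason not given in the sources used here, so the denominators of the KO shares may lack nuclei. The share in the KO was thus below that of its wild-type counterpart and above that at E14.5. Deeper nuclei meet the rule more easily, so every nucleus was also thinned to 1000 UMIs. The shares then were 0.532% at E14.5, then 2.67% at E18.5, 2.88% at P5, 0.0456% in adults and 0.499% in the KO, so E18.5 no longer lay above P5 and the KO no longer above E14.5. As a share of nuclei with Ttn under 1%, tenocyte nuclei were 2.43% at E14.5, then 15.1% at E18.5, 12.1% at P5, 0.294% in adults and 3.57% in the KO.

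**Figure D1:**
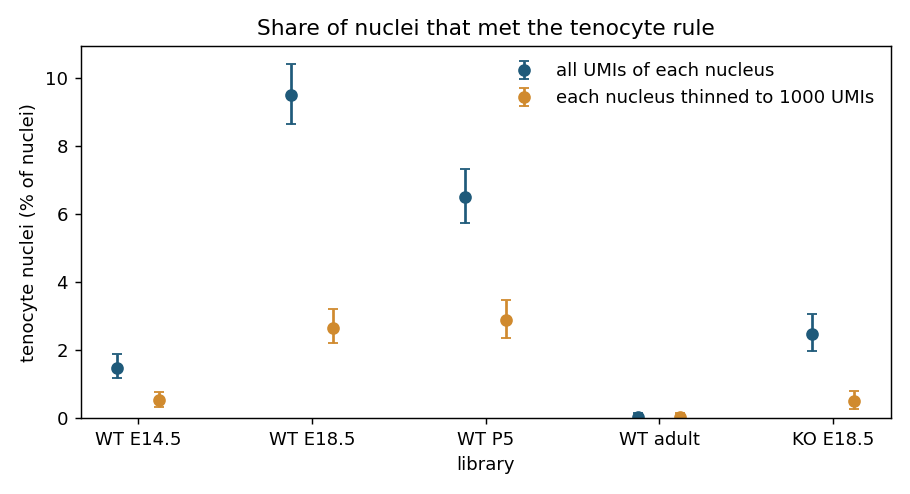
Tenocyte nuclei as a percent of all nuclei within the UMI limits (y axis) in each of the 5 libraries (x axis), from all UMIs (blue) and after each nucleus was thinned to 1000 UMIs (orange). Bars are exact binomial 95% intervals. From all UMIs the share was highest at 9.50% in wild type at E18.5 and 2.48% in the KO of the same age.

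A second class of nuclei from the same libraries served for comparison. These other connective tissue nuclei held no Tnmd UMI and at least 3 of 7 fibroblast genes (Pdgfra, Dcn, Col3a1, Col1a2, Lum, Col14a1 and Ebf2), Pdgfra among them. There were 1178 at E14.5, then 1222 at E18.5, 735 at P5, 107 in adults and 935 in the KO. Of both classes together, tenocyte nuclei made up 5.76% at E14.5, then 25% at E18.5, 24.9% at P5, 1.83% in adults and 7.88% in the KO. The lower share of tenocyte nuclei in the KO library was thus also seen within connective tissue. The low adult share of both classes depended in part on the requirement of Tnmd. Without it 15 adult nuclei met the rule, or 12.3% of both classes (7.05 to 19.5%), against 8.75% at E14.5 and 10.7% in the KO. Since both classes were chosen by expression, a cell that lost tendon genes could pass from 1 class to the other.

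The 7 tendon genes that chose the nuclei are given as a description. Tnmd (chrX:133850980-133865577) was at 407 CPM at E14.5, then 608 at E18.5, 715 at P5 and 320 in the KO. Scx (chr15:76457452-76459458) was at 31.9, 29.4, 23.0 and 17.8 CPM in the same order. Mkx (chr18:6934518-7004780) was at 1153, 648, 987 and 1184 CPM. Mkx thus had its lowest level in wild type at E18.5, where the share of tenocyte nuclei was highest. Fmod (chr1:134037254-134048277) was at 34.8, 167, 205 and 85.0 CPM. Thbs4 (chr13:92751590-92794818) was at 166, 305, 322 and 170 CPM. Kera (chr10:97606879-97613692) was at 63.9, 72.6, 84.6 and 100 CPM. Fmod was the gene of the rule that differed most between E14.5 and E18.5, while the intervals of Kera and Scx overlapped between these stages. Col11a1 (chr3:114030540-114220718) was at 2282, 2889, 3537 and 2403 CPM.

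The rule left a margin of nuclei that were near its limits. With Tnmd present and exactly 3 of the 7 genes detected, 39, 80, 40, 1 and 18 nuclei were counted, from wild type at E14.5 through the adult and then in the KO. Nuclei with 2 of the 7 genes, just outside, numbered 26, 25, 13, 0 and 7. Nuclei with 5 or more of the genes numbered 12, 181, 134, 1 and 38, so well-marked tenocyte nuclei were a small part of the class at E14.5. The 12 at E14.5 held a median of 6340.5 UMIs, against 3686 in those with 3 or with 4 genes. The part of depth in these numbers was not tested. The median share of UMIs from the 7 genes was 0.409%, 0.491%, 0.633%, 0.492% and 0.429%.

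The 2 adult nuclei allowed no comparison. Together they held 8 UMIs of Col11a1, 7 of Mkx, 3 of Tnmd, 3 of Thbs4 and 2 of Fmod. Among matrix genes they held 5 UMIs of Dcn (decorin), 3 of Col1a2 and 0 of Col1a1. They also held 7 UMIs of Chodl, which is on the marker list of myogenic progenitors. In adults the upper limit of the interval on their share was 0.141% of 5115 nuclei, a limit set by the counting error of 1 pooled sample of sorted nuclei.

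Open chromatin was not itself used to choose the nuclei. It was read at the starts of the 7 genes whose RNA chose them, so it is not separate support for the label. ATAC counts in peaks within 1000 bases of the start of the 7 tendon genes were 159 per 1000000 peak counts in tenocyte nuclei and 98.3 in other connective tissue nuclei at E14.5. The values were 205 and 71.0 at E18.5, 239 and 59.5 at P5, and 225 and 94.8 in the KO. Summed over the 7 genes, counts were thus higher in tenocyte nuclei in each of the 4 libraries. The difference was 1.62-fold (95% interval 1.11 to 2.30), 2.89-fold (2.62 to 3.19), 4.02-fold (3.45 to 4.70) and 2.37-fold (1.84 to 3.02) in that order. At E14.5 the sum rested on 34 counts, 18 of them at Col11a1 (ratio 1.84, 1.07 to 2.98). Scx (1.13, 0.407 to 2.55), Fmod (1.06, 0.124 to 4.11), Mkx (1.72, 0.450 to 4.70) and Thbs4 (2.38, 0.612 to 6.66) had intervals that included 1 at E14.5. The mean log2 ratio was 1.37 ± 0.55 (SD, n = 4 libraries), with a p of 0.125 by the exact two-sided sign-flip permutation test over libraries, which is the smallest p that 4 libraries can give, so the design could not pass 0.05. The adult library gave no ratio, since its 2 tenocyte nuclei had 0 counts at these promoters.

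Single promoters differed in how far they followed this sum. At Fmod, whose promoter is printed above, tenocyte nuclei had 31.5 counts per 1000000 and other connective tissue nuclei 5.19 in wild type at E18.5, a ratio of 6.07 (4.40 to 8.48). The Scx promoter had 60.5 against 21.3 per 1000000 in that library (ratio 2.85, 2.37 to 3.42) and 64.2 against 27.2 in the KO (2.36, 1.44 to 3.73). At Thbs4 the values were 26.5 and 10.8 per 1000000 in wild type at E18.5 and 16.0 and 11.3 in the KO, where the interval of the ratio (0.493 to 3.39) included 1. The Mkx promoter had intervals that included 1 in all but the P5 library, where the ratio was 2.40 (1.61 to 3.56). A peak at the Tnmd start was called in the wild-type E18.5 library alone, with 53 counts in tenocyte and 11 in other connective tissue nuclei, and no peak was called at Kera. Peaks were called in each library apart, so a missing peak does not show closed chromatin.

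**Figure D2:**
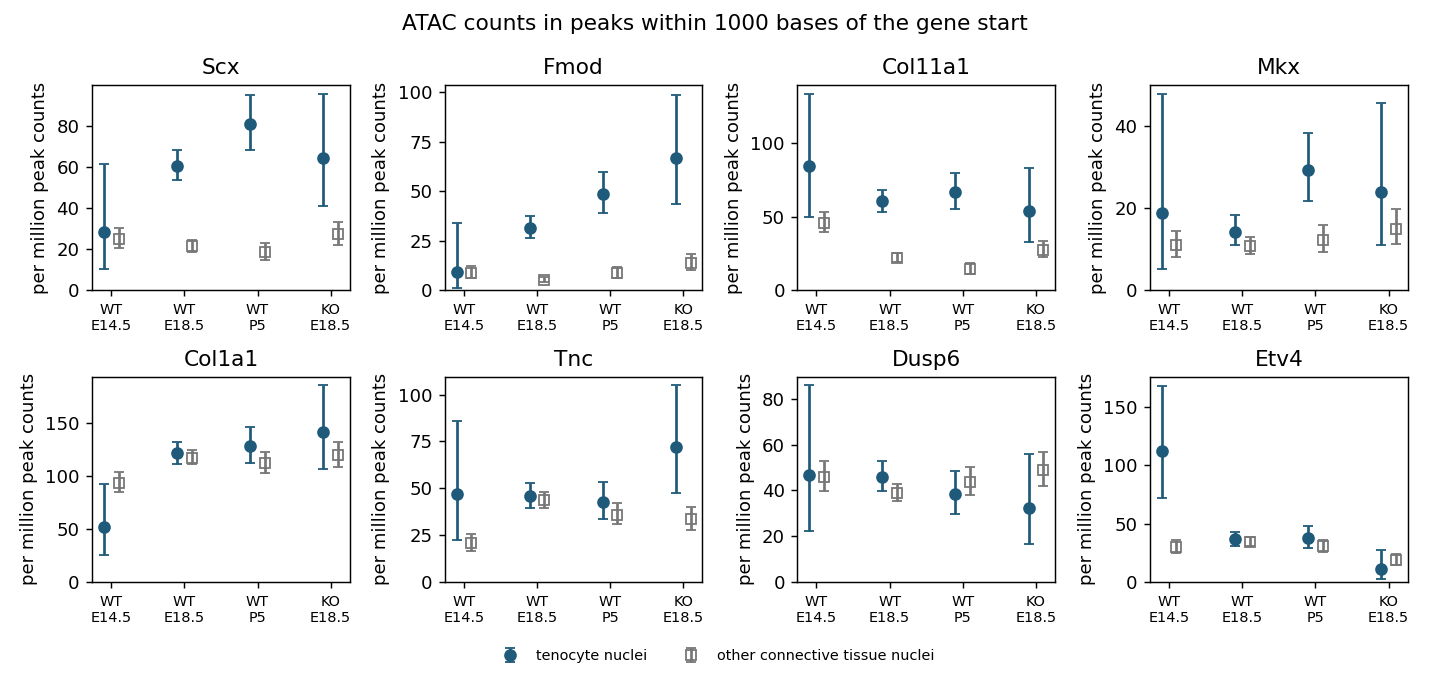
ATAC counts per 1000000 peak counts in peaks within 1000 bases of 8 gene starts (y axis) in 4 libraries (x axis), for tenocyte nuclei (filled circles) and other connective tissue nuclei (open squares). Bars are exact 95% counting intervals. At the tendon genes Scx, Fmod and Col11a1 tenocyte nuclei lay above in the E18.5 and P5 wild types and in the KO, and at Col1a1 both classes were at 112 to 142 counts per 1000000 in these libraries.

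From E14.5 to E18.5, tenocyte nuclei gained RNA of collagens and of matrix assembly proteins. Genes were compared as summed CPM and called at a 2-fold difference when either library held at least 20 UMIs. Of 10827 genes so measured, 13.9% were called higher and 5.44% lower at E18.5, and the median log2 ratio of all genes was 0.09. This balance depended on the limits, at unequal depths of 344374 and 3030356 UMIs. Called at the interval bound nearest 1, 107 genes were higher and 136 lower, and with no minimum of UMIs 1569 and 2487. The list counts for this step are to be read against the 13.9% higher and 5.44% lower of all genes. Of 18 collagen genes, 11 were called higher and 0 lower, with a median log2 ratio of 1.13. In other connective tissue nuclei 8 of the 18 were higher, 2 were lower and the median was 0.72. Without tenocyte nuclei that held 2 or more markers of cartilage and bone, 9 were higher and 1 was lower.

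Col1a1 (chr11:94936224-94953042), which encodes the alpha 1 chain of type I collagen, was at 810 CPM at E14.5 and 5556 CPM at E18.5. This was a 6.86-fold higher level (95% interval 6.09 to 7.75), against 4.17-fold in other connective tissue nuclei. The log2 ratio of 2.78 became 2.17 without nuclei with cartilage and bone markers and 3.37 without those with other cell types' markers. Its partner chain Col1a2 went from 1841 to 6074 CPM, 3.30-fold higher. The type III collagen gene Col3a1 (1281 and 1721 CPM) and Col12a1 (1237 and 1543 CPM), a fibril-associated collagen, did not reach 2-fold. Among the type VI collagen genes, which form the network around cells, Col6a1 was 6.38-fold, Col6a2 4.85-fold and Col6a3 5.54-fold higher. Col15a1, a collagen of basement membranes, had 0 UMIs at E14.5 and 251 at E18.5, at least 9.51-fold higher against a floor of 3 UMIs. That log2 bound of 3.25 was 1.89 without nuclei with cartilage and bone markers.

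Single nuclei differed widely in Col1a1. At E14.5 the lowest tenocyte nucleus held 0, the median 5.84 and the highest 75.6 UMIs of Col1a1 per 10000 UMIs. At E18.5 the values were 1.80, 21.0 and 1075 per 10000, so a few nuclei reached very high levels while the middle of the class also moved. The median at P5 was 23.9 per 10000 and the highest 893.

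Proteins that process and crosslink collagen followed in part. Of 27 such genes 7 were higher and 0 lower, with a median log2 ratio of 0.69, and in other connective tissue nuclei 7 were higher and 1 lower, with a median of 0.63. Sparc, which encodes a collagen chaperone and binding protein, was 4.13-fold higher (3.31 to 5.23). Pcolce, an enhancer of procollagen cleavage, was 3.06-fold higher (2.10 to 4.64). Sparc and Pcolce were 2.90-fold and 5.71-fold higher in other connective tissue nuclei. Among 7 measured small proteoglycans 3 were higher and 0 lower, against 5 higher of 8 in other connective tissue nuclei. Bgn (biglycan) was 4.62-fold and Aspn (asporin) 2.92-fold higher, while Dcn, which limits fibril width, was at 192 and 280 CPM and was not called. Bgn, Aspn and Dcn were 4.10-fold, 3.84-fold and 2.57-fold higher in other connective tissue nuclei.

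Of 21 glycoproteins of tendon and of elastic fibers, 10 were higher and 0 lower, with a median log2 ratio of 0.97. The other connective tissue nuclei had 10 of 20 higher and 1 lower, with a median of 0.91. Without the nuclei with cartilage and bone markers 5 of 20 were higher. Tnc (chr4:63959785-64047015) had 45 UMIs or 131 CPM at E14.5 and 1247 UMIs or 412 CPM at E18.5, a 3.15-fold higher level (2.34 to 4.34). In other connective tissue nuclei Tnc was at 146 and 130 CPM, a ratio of 0.891. Tnxb, the tenascin-X gene, had 1 UMI at E14.5 and 262 at E18.5 (29.8-fold, 5.30 to 1180), and its log2 ratio of 4.90 was 2.60 without other cell types' markers in the nuclei. Tnxb was also 23.2-fold higher in other connective tissue nuclei. Comp, a cartilage and tendon matrix protein, had 0 and 80 UMIs and was at least 3.03-fold higher, a call that was lost without the nuclei with cartilage and bone markers.

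Receptors and regulators showed fewer differences at this step, at which 13.9% of all genes were called higher and 5.44% lower. Itga2, the alpha 2 subunit of a collagen receptor, was 2.57-fold higher and Cd44, the hyaluronan receptor, 3.55-fold higher. They were 3.39-fold and 3.71-fold higher in other connective tissue nuclei. Tgfbi (chr13:56609523-56639562), a matrix protein induced by TGF-beta, went from 43.6 to 122 CPM (2.80-fold, 1.68 to 5.06) and was at 1.06-fold in other connective tissue nuclei. Ltbp1, which stores latent TGF-beta, was 2.40-fold lower (2.03 to 2.82), and the stretch-activated channel gene Piezo2 was 2.18-fold lower (1.95 to 2.43). Both were also lower in other connective tissue nuclei, by 4.66-fold and 2.81-fold. Among 10 tendon regulators 0 were higher. Of 14 FGF pathway genes, Fgf2 was 2.38-fold higher and Etv5, a transcription factor induced by FGF, 2.18-fold lower. Their ratios were 1.05 and 0.861 in other connective tissue nuclei.

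Genes of the glucocorticoid response and of the circadian clock formed another group. Of 12 measured, 5 were higher and 0 lower, with a median log2 ratio of 0.82. Other connective tissue nuclei also had 5 of 12 higher and 0 lower, with a median of 0.89. Zbtb16, a zinc finger factor that glucocorticoids induce, had 1 UMI at E14.5 and 242 at E18.5 (27.5-fold, 4.89 to 1090), and 4.75-fold in other connective tissue nuclei. Arntl, a core clock activator, had 2 and 145 UMIs (8.24-fold, 2.24 to 68.7), and was 1.91-fold higher in other connective tissue nuclei. Of 19 imprinted and IGF growth genes 2 were higher, Igfbp7 (4.81-fold, 2.84 to 8.84) and the maternally expressed long RNA Meg3 (2.30-fold, 2.13 to 2.47). Among all genes 13.9% were called higher, so this count was not above that share. Igfbp7 and Meg3 were 4.02-fold and 2.61-fold higher in other connective tissue nuclei.

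The genes outside every list that led the comparison included Itgbl1, an integrin beta-like protein, at 125 and 894 CPM (7.16-fold, 5.30 to 9.92, against 1.95-fold in other connective tissue nuclei). Rapgef4 was 15.0-fold higher (4 and 529 UMIs), Ak5 15.5-fold (3 and 409 UMIs), Neat1 9.37-fold, Lmna, the gene of lamin A and C, 8.04-fold and AC149090.1 5.01-fold. From Rapgef4 on, the same genes were 3.71-fold, 6.56-fold, 2.88-fold, 4.49-fold and 5.40-fold higher in other connective tissue nuclei. Among genes lower at E18.5, Ralyl was 82.1-fold lower and its 56 UMIs at E14.5 came from 4 nuclei. Cntn5 (38.1-fold lower), Cdh8 (40.2-fold), Egfem1 (30.5-fold), Ptprt (19.6-fold) and Nkain3 (19.4-fold) had UMIs in 11 to 30 of the 72 nuclei. All 6 were also called lower in other connective tissue nuclei, from 8.50-fold for Nkain3 to 39.9-fold for Ptprt. Of the genes named for this step, Etv5, Fgf2, Piezo2, Meg3, Comp, Ralyl and Cdh8 lost their call under at least 1 other choice of nuclei or scaling, apart from thinning, and the type I collagen genes, Sparc, Tnc and Tgfbi kept theirs.

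Markers of other cell types also differed between these libraries. The summed level of 8 macrophage markers was 2.90 CPM in tenocyte nuclei at E14.5, then 283 at E18.5 and 75.3 at P5, with F13a1 leading at 165 CPM at E18.5. Of 13 cartilage and bone markers the sum was 209, 423 and 203 CPM, led by Runx2. The 8 endothelial markers summed to 52.3, 137 and 155 CPM and the 11 myonuclear markers to 1063, 1085 and 774 CPM. Their part in the stage differences was tested only by leaving out nuclei, as given beside the lists.

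From E18.5 to P5 the lower side held most of the differences, and cell cycle genes were the list with the lowest median. Of 10934 genes 3.66% were called higher and 11.3% lower, with a median log2 ratio of -0.20 over all genes. With TMM scaling, which moved the median by 0.12, 507 genes were higher and 957 lower, so 34.6% of called genes were higher against 24.4% without it. Of 24 cell cycle genes 20 were lower and 0 higher, with a median log2 ratio of -1.63. In other connective tissue nuclei 8 of the 24 were lower and the median was -0.94.

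Top2a, the topoisomerase that untangles replicated DNA, was at 186 CPM at E14.5, then 296 at E18.5 and 64.1 at P5, and was 4.62-fold lower at P5 than at E18.5 (3.76 to 5.72). Kif11, a motor of the mitotic spindle, was at 128, 134 and 26.1 CPM and 5.14-fold lower (3.74 to 7.24). Both genes were thus near their E14.5 level or above it at E18.5, before the drop. The ratio of Top2a in other connective tissue nuclei was 0.385 and that of Kif11 0.436. Between 15 and 21 of the 24 genes were lower under all other choices of nuclei and scalings, except after thinning, when 2 genes were measured and both were lower.

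The number of nuclei with cell cycle RNA moved the same way. At least 5 UMIs of the 24 genes were held by 43.1% of tenocyte nuclei at E14.5 (31.4 to 55.3%), then 35.9% at E18.5 (31.2 to 40.7%) and 20.9% at P5 (16.0 to 26.5%). The intervals of E14.5 and E18.5 overlapped, and that of P5 lay below both. The shares in other connective tissue nuclei were 31.8%, 41.6% and 22.9%. Median UMIs per tenocyte nucleus were 6054 at E18.5 and 5637.5 at P5.

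**Figure D3:**
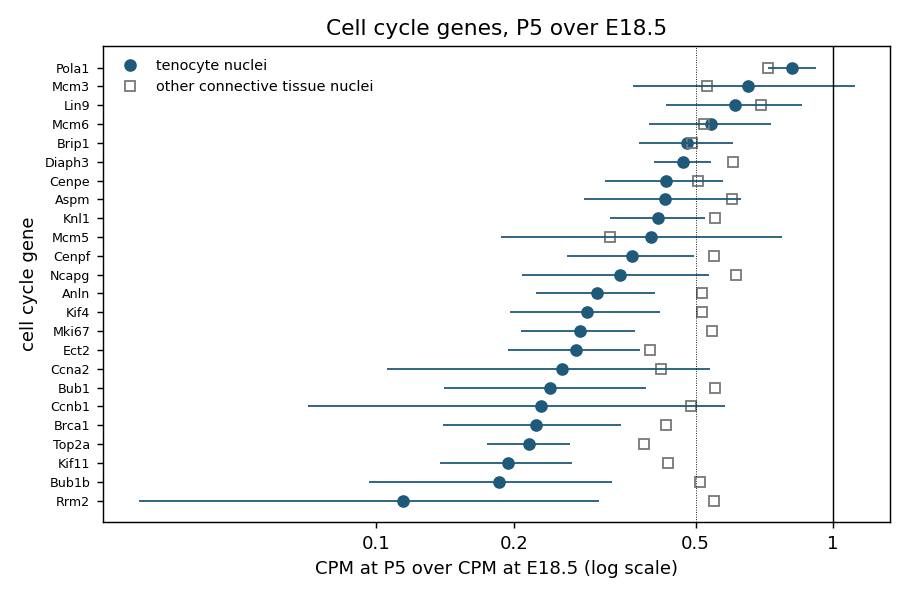
Ratio of CPM at P5 to CPM at E18.5 (x axis, log scale) for the 24 cell cycle genes (y axis), in tenocyte nuclei (filled circles, with exact 95% counting intervals) and other connective tissue nuclei (open squares). The dotted line marks a 2-fold lower level. All 24 ratios in tenocyte nuclei lay below 1 and 20 lay below the dotted line, from Rrm2 at 0.114 to Brip1 at 0.479.

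Of 18 collagen genes 0 were higher and 1 was lower at P5, counts to be read against the 3.66% and 11.3% of all genes, and the median log2 ratio was -0.01, or 0.11 with TMM scaling. Col1a1 was at 5556 and 4575 CPM (ratio 0.824), Col1a2 at 6074 and 8456 (1.39), Col3a1 at 1721 and 1684 (0.978) and Col12a1 at 1543 and 2510 (1.63). Without nuclei with cartilage and bone markers the log2 ratio of Col1a1 turned from -0.28 to 0.11. The 1 gene below 2-fold was Col27a1, a fibrillar collagen of cartilage and growing tissue, at 270 and 92.7 CPM (2.91-fold lower, 2.44 to 3.49).

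Other matrix genes differed in both directions at P5. The list counts that follow are to be read against the 3.66% higher and 11.3% lower of all genes. Of 7 measured small proteoglycans Dcn alone was called. It was at 280 CPM at E18.5 and 862 at P5, 3.08-fold higher (2.83 to 3.36), and 1.83-fold in other connective tissue nuclei. Itga2 was at 142 and 646 CPM, 4.56-fold higher (4.07 to 5.11), and 3.20-fold in other connective tissue nuclei. With 55.2 CPM at E14.5, Itga2 was ordered by stage and its intervals did not overlap. Of 21 glycoproteins 5 were higher and 1 was lower. Cilp2, a cartilage intermediate layer protein, was 5.34-fold higher (3.31 to 8.90), and Matn4, a matrilin, was 3.96-fold higher (2.69 to 5.92). Their ratios in other connective tissue nuclei were 3.90 (0.833 to 24.1) and 1.15. Comp was 2.33-fold, Thbs1 2.31-fold and Prg4, the lubricin gene, 2.05-fold higher. Fbln1, the fibulin 1 gene, was 2.92-fold lower (2.17 to 3.99), and 2.95-fold lower in other connective tissue nuclei. Of 27 collagen processing genes Loxl3, a lysyl oxidase, was 2.13-fold higher, and 3 were lower, among them the collagen chaperone gene Serpinh1 (2.20-fold, 1.84 to 2.65) and the lysyl hydroxylase gene Plod3 (2.15-fold, 1.32 to 3.65). For collagen processing both counts were near the shares of all genes called.

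Growth and signaling genes also differed. Of 19 imprinted and IGF growth genes 4 were lower and 1 higher. Dlk1, a membrane protein of immature cells, was at 612 and 226 CPM (2.71-fold lower, 2.42 to 3.04), and Cdkn1c, a cyclin-dependent kinase inhibitor, at 121 and 39.2 (3.10-fold, 2.37 to 4.12). Igf1, the growth factor, was at 330 and 698 CPM (2.12-fold higher, 1.94 to 2.31). Other connective tissue nuclei had Dlk1 2.06-fold and Cdkn1c 1.93-fold lower and Igf1 1.48-fold higher. Chromatin at the Dlk1 start gave 22.6 ATAC counts per 1000000 at E18.5 and 10.1 at P5 (ratio 0.449, 0.256 to 0.748), and at the Itga2 start 22.1 and 37.2 (1.68, 1.21 to 2.33). At both the direction was that of the RNA, in peaks called apart in each library. Elsewhere it was not: the ATAC ratio of Col12a1 was 0.743 (0.604 to 0.909) with an RNA ratio of 1.63, and that of Thbs4 0.553 (0.347 to 0.853) with an RNA ratio of 1.05. Dlk1 and Itga2 were chosen for ATAC after their RNA values were seen. In other connective tissue nuclei their ATAC ratios were 0.814 (0.643 to 1.02) and 1.45 (1.08 to 1.93).

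Zbtb16 and Fkbp5, both induced by glucocorticoids, were 4.43-fold (3.00 to 6.75) and 3.98-fold lower (2.83 to 5.74). By contrast the clock genes Nr1d2 and Per3 were 5.92-fold (4.02 to 8.93) and 2.88-fold higher (1.86 to 4.51). All were also called in other connective tissue nuclei. There Zbtb16 was 3.46-fold and Fkbp5 4.50-fold lower, and Nr1d2 was 5.43-fold and Per3 2.08-fold higher. The day time of tissue collection was not given in the sources used here. Ltbp2, a latent TGF-beta binding protein of elastic fibers, was 5.70-fold lower (3.15 to 11.3), and Smad7, an inhibitor of TGF-beta signals, 2.08-fold lower (1.46 to 3.04). Ltbp2 and Smad7 were also 4.67-fold and 2.11-fold lower in other connective tissue nuclei. Among mechanical response genes, Acta2, the smooth muscle actin gene, was 2.43-fold higher (1.56 to 3.82), Myl9, a myosin light chain gene, 2.31-fold higher (1.27 to 4.26) and Tead4, a partner of YAP, 3.26-fold lower (1.80 to 6.40), which reversed without nuclei that held other cell types' markers. Other connective tissue nuclei had Tead4 3.10-fold lower and Myl9 2.07-fold higher, with a ratio of 0.921 for Acta2. Fgfr3 had 20 UMIs at E18.5 and 0 at P5, at least 3.54-fold lower, with a ratio of 0.933 in other connective tissue nuclei.

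Outside the lists, Prlr, the prolactin receptor gene, was at 2.31 CPM at E18.5 and 75.3 at P5 (32.6-fold, 15.3 to 82.8), with UMIs in 33 nuclei at P5. Nr4a3, an early response nuclear receptor, had 2 and 43 UMIs (40.5-fold, in 17 nuclei at P5). The other leading genes rested on single nuclei: 97% of the Kcnh7 UMIs at P5 came from 1 nucleus, and the fat cell genes Plin4, Acvr1c and Pck1 had UMIs in 4, 6 and 2 nuclei. Actc1, the cardiac actin gene that fetal muscle expresses, was 37.1-fold lower (210 and 3 UMIs), while the sum of the 11 myonuclear markers was 1085 and 774 CPM. Other connective tissue nuclei had Actc1 6.86-fold lower. Kcnq3, C1qb, Dach2 and Nrros had 0 UMIs at P5 and 43 to 68 at E18.5, in 7 to 25 nuclei. C1qb is a gene of macrophages, whose 8 markers summed to 283 CPM at E18.5 and 75.3 at P5. Adipocyte markers summed to 5.94 CPM at E18.5 and 85.2 at P5. Igf1, Per3, Serpinh1, Plod3, Smad7, Myl9, Tead4 and Fgfr3 lost their call under at least 1 other choice of nuclei or scaling, apart from thinning, as did each outside gene named but Prlr, Nr4a3, Actc1 and Kcnq3.

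**Figure D4:**
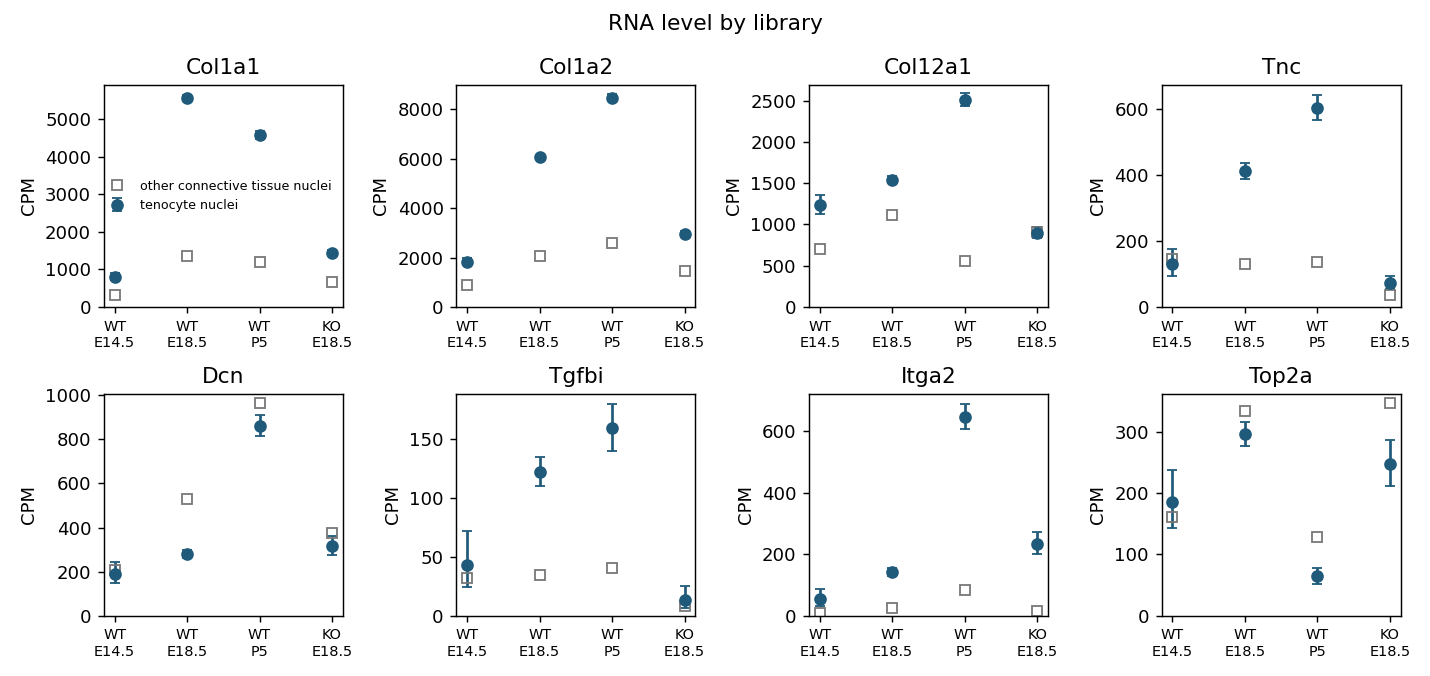
CPM (y axis) of 8 genes in 4 libraries (x axis), summed over tenocyte nuclei (filled circles, with exact Poisson 95% intervals) and over other connective tissue nuclei (open squares). Col1a1, Tnc and Tgfbi were higher at E18.5 than at E14.5 and lower in the KO than in wild type at E18.5, Dcn and Itga2 were highest at P5, and Top2a was lowest at P5. In the KO, Tgfbi was at 13.7 CPM in tenocyte nuclei.

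Without muscle contraction, tenocyte nuclei at E18.5 held less RNA of type I collagen and of tenascin-C than those of wild type. Of 14 FGF pathway genes 3 were called lower, Etv4, Etv5 and Dusp6, and 3 higher. Of 10843 genes 4.33% were called higher and 12.0% lower in the KO, with a median log2 ratio of -0.15 over all genes. This balance also turned with the limits, to 146 higher and 121 lower at the interval bound nearest 1 and to 2386 and 1689 with no minimum of UMIs. The wild-type E18.5 library is shared with the comparison to E14.5 above, so the ratios of both are given apart. The list counts that follow are to be read against the 4.33% and 12.0% of all genes.

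Of 18 collagen genes, 5 were lower in the KO and 0 higher, with a median log2 ratio of -0.73. In other connective tissue nuclei 3 were lower and 0 higher, with a median of -0.48. Col1a1 was at 5556 CPM in wild type and 1432 CPM in the KO, 3.88-fold lower (3.64 to 4.13), and its ratio in other connective tissue nuclei was 0.486. The median tenocyte nucleus held 21.0 Col1a1 UMIs per 10000 UMIs in wild type and 11.1 in the KO. The highest nucleus held 1075 in wild type and 172 in the KO, so the difference in the sum was larger than that in the median nucleus. Without nuclei with cartilage and bone markers Col1a1 had a log2 ratio of -1.35 in place of -1.96, and 2 of 18 collagens were lower.

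The other 4 collagen genes called were Col1a2, Col5a3, Col6a1 and Col6a2. Col1a2 was at 6074 and 2953 CPM (2.06-fold lower, 1.97 to 2.15), close to the limit of 2-fold. Col6a2 was at 366 and 114 CPM (3.22-fold lower, 2.57 to 4.07). Col3a1 was at 1721 and 1133 CPM (ratio 0.658) and Col12a1 at 1543 and 901 (0.584), and neither was called. Of 27 collagen processing genes 8 were lower and 0 higher, with a median log2 ratio of -0.77, and in other connective tissue nuclei 5 were lower and 0 higher (-0.53). Sparc was at 960 and 384 CPM (2.50-fold lower, 2.21 to 2.84), and Fkbp10, a prolyl isomerase of the endoplasmic reticulum that folds collagen, was 3.18-fold lower (1.94 to 5.56). Without nuclei with cartilage and bone markers 3 of the 27 were lower and 2 higher. Among small proteoglycans Bgn was 2.75-fold lower (2.16 to 3.56), while Dcn was at 280 and 317 CPM (ratio 1.13, 0.975 to 1.31).

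Of 21 glycoproteins 4 were lower and 1 higher, with a median log2 ratio of -0.34. Among those of other connective tissue 6 of 20 were lower and 0 higher, with a median of -0.54. Tnc had 1247 UMIs (412 CPM) in wild type and 52 UMIs (71.3 CPM) in the KO, 5.77-fold lower (4.37 to 7.77). It was detected in 241 of 407 wild-type and 14 of 80 KO nuclei, and after thinning to 1000 UMIs in 23.3% (19.3 to 27.8%) and 2.50% (0.304 to 8.74%). Without other cell types' markers in the nuclei its log2 ratio was -4.36 in place of -2.53. In other connective tissue nuclei the ratio of Tnc was 0.290. Thbs3, a thrombospondin gene (chr3:89215180-89226837), was at 127 and 21.9 CPM (5.77-fold lower, 3.51 to 10.2), with 0.149 in other connective tissue nuclei. The remaining 2 lower glycoproteins had few UMIs in the KO, with 2 of Comp against 80 and 1 of Prg4 against 23. Matn4 was 2.49-fold higher (1.44 to 4.24).

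The TGF-beta target Tgfbi was at 122 CPM in wild type and 13.7 CPM in the KO, 8.90-fold lower (4.79 to 18.7). It was detected in 170 of 407 and 10 of 80 nuclei, and its ratio in other connective tissue nuclei was 0.235. Of 14 TGF-beta and BMP receptors, Smads and targets 3 were lower and 0 higher, the matrix factor gene Ccn2 (Ctgf in the files) among them with 86 and 8 UMIs. Of 10 ligands and binding proteins Bmp4 was 2.47-fold lower (1.33 to 5.09) and Ltbp1 was 2.10-fold higher (1.84 to 2.39).

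The FGF pathway genes called lay on both sides. Of 14 genes 3 were higher and 3 lower. The 3 lower were Etv4, Etv5 and Dusp6, which FGF signals induce, and the 3 higher were the ligands Fgf7 and Fgf10 and the receptor Fgfr4. Etv4 (chr11:101769742-101785371) was at 34.8 CPM at E14.5, then 47.5 at E18.5 and 28.6 at P5 in wild type and had 1 UMI (1.37 CPM) in the KO. That was 34.6-fold below wild type at E18.5 with an interval of 6.12 to 1380, and UMIs lay in 83 of 407 and 1 of 80 nuclei. Its log2 ratio of -5.11 was -2.09 without other cell types' markers in the nuclei, where that of Dusp6 went from -2.66 to -1.42. Dusp6 (chr10:99263231-99267489) had 79 UMIs in wild type and 0 in the KO, at least 6.34-fold lower, and Etv5 was at 37.3 and 15.1 CPM (ratio 0.405, 0.196 to 0.752). The call of Etv5 was not checked under other choices of nuclei and scaling.

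Other connective tissue nuclei had ratios of 0.929 for Etv4 and 0.962 for Dusp6, and whether the 2 classes differed was not tested. Their wild-type levels were low, at 6.46 CPM for Etv4 and 5.24 for Dusp6, with Etv4 in 3.52% of wild-type and 2.57% of KO nuclei at median depths of 5773 and 7568 UMIs. Fgf7 was at 35.6 CPM in wild type and 117 in the KO (3.27-fold higher, 2.43 to 4.39), and Fgf10 at 39.6 and 90.5 (2.29-fold, 1.67 to 3.11). In other connective tissue nuclei, where both ligands were at higher levels, the ratios were 1.87 and 2.38. The receptor Fgfr1 was at 248 and 229 CPM (ratio 0.923), and the feedback inhibitors Spry1, Spry2 and Spry4 had ratios of 1.08, 0.594 and 0.564 and were not called. After thinning to 1000 UMIs Etv4 was in 3.93% of wild-type (2.26 to 6.31%) and 0 of 80 KO nuclei (up to 4.51%), so at equal shallow depth the intervals overlapped.

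**Figure D5:**
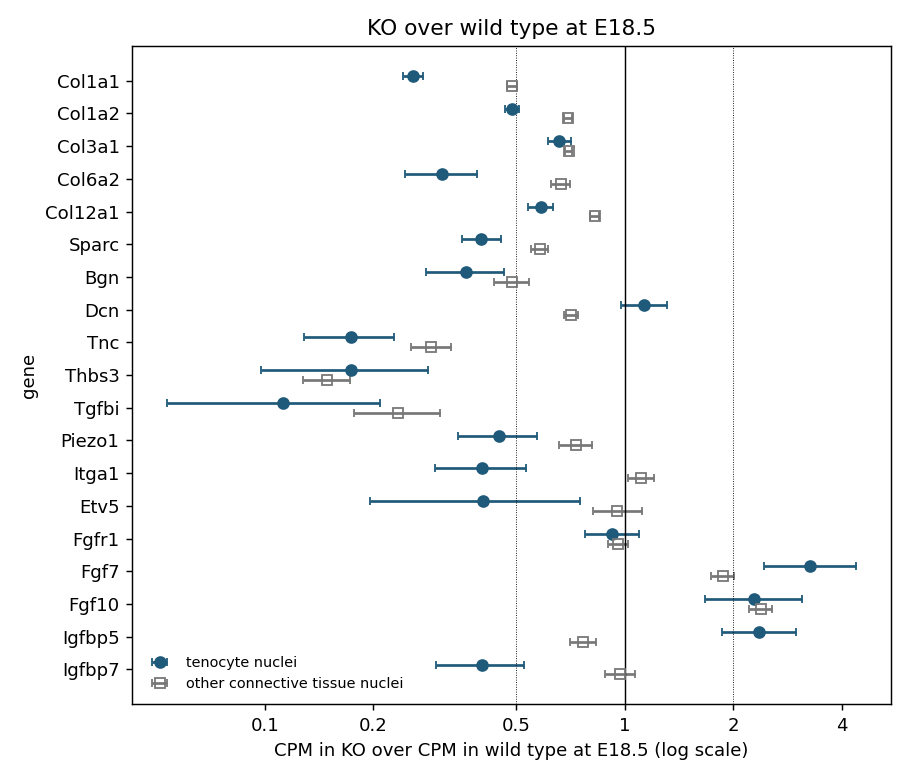
Ratio of CPM in the KO to CPM in wild type at E18.5 (x axis, log scale) for 19 genes (y axis), in tenocyte nuclei (filled circles) and other connective tissue nuclei (open squares). Bars are exact 95% counting intervals and dotted lines mark 2-fold differences. Etv4 and Dusp6, with 1 and 0 UMIs in the KO, are not drawn. Among the genes drawn Tgfbi was farthest from 1 at a ratio of 0.112, Fgf7 lay on the other side at 3.27, and Dcn lay near 1 at 1.13.

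Since KO nuclei might meet the rule with fewer or more tendon genes, the comparison is also described among nuclei with the same number of the 7 genes. With exactly 3 genes (18 KO and 80 wild-type nuclei) Col1a1 was 2.02-fold lower, with 4 (24 and 146 nuclei) 2.17-fold and with 5 or more (38 and 181 nuclei) 5.11-fold lower. Tnc was 8.31-fold, 3.62-fold and 7.95-fold lower, and Tgfbi 4.05-fold, 9.52-fold and 13.8-fold lower. Etv4 was 11.3-fold, at least 4.44-fold and at least 3.32-fold lower. These 4 genes were below wild type in every such group, and Col1a1 differed most among nuclei with the most tendon genes. Col1a2 was 1.66-fold, 1.63-fold and 2.38-fold lower, so it passed 2-fold only with 5 or more genes. Dusp6, at 0 UMIs in each KO group, was at least 1.54-fold, 2.39-fold and 2.32-fold lower. The groups split the same libraries by genes of the rule, so they are no repeated check. With exactly 3 genes the median depth was 7706 UMIs in the KO and 4889 in wild type. KO counts in the groups were small, at 4, 2 and 4 UMIs of Tgfbi and 1, 0 and 0 of Etv4. Nuclei with cartilage and bone markers were not left out of the groups. Sparc was 1.23-fold lower with 3 genes, where its interval included 1, and 3.15-fold with 5 or more.

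Receptors of the matrix and mechanical sensors differed in a minority of genes, counts to be read against the 4.33% higher and 12.0% lower of all genes. Itga1, a collagen receptor subunit, was at 181 and 72.7 CPM (2.49-fold lower, 1.88 to 3.37), with a ratio of 1.11 in other connective tissue nuclei. With Tnmd not required its log2 ratio was -0.80 in place of -1.32 and its call was lost. Itga5, a fibronectin receptor subunit, was 2.54-fold lower (1.67 to 4.03), and Itga8 was 2.11-fold higher (1.62 to 2.73). Of 18 matrix receptors 3 were lower and 1 higher. The stretch-activated channel gene Piezo1 was at 218 and 97.4 CPM (2.24-fold lower, 1.75 to 2.90). It was 1 of 2 lower and 0 higher among 16 mechanical response genes, near the share of all genes called lower. Of 8 immediate early genes 2 were lower, Fosl2 (50 and 1 UMIs) and Jund (43 and 2 UMIs). Of 10 tendon regulators 3 were lower and 0 higher, among them Klf2, which responds to force, with 48 and 1 UMIs (11.5-fold, 1.98 to 466) and Sox9 with 45 and 3 UMIs (3.61-fold, 1.16 to 18.2).

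IGF binding proteins went both ways. Igfbp5 was at 66.7 and 158 CPM (2.37-fold higher, 1.87 to 2.99) and Igfbp3 at 25.7 and 64.5 (2.50-fold higher, 1.71 to 3.64), with ratios of 0.766 and 0.977 in other connective tissue nuclei. Igfbp7 was at 195 and 78.2 CPM (2.50-fold lower, 1.90 to 3.34), with 0.972 in the other nuclei. Of 12 glucocorticoid and circadian genes 4 were lower and 0 higher, among them the clock genes Arntl (3.17-fold, 1.72 to 6.49) and Per2 (2.39-fold, 1.54 to 3.90). Of 24 cell cycle genes Mcm5 was lower with 52 and 3 UMIs, and the median log2 ratio was 0.07. At least 5 cell cycle UMIs were held by 40.0% of KO (29.2 to 51.6%) and 35.9% of wild-type tenocyte nuclei (31.2 to 40.7%), and these intervals overlapped. Without the nuclei that held other cell types' markers, which left 40 KO and 269 wild-type nuclei, 20 of the 24 were lower and the median was -2.10. That choice leaves out nuclei with 2 or more detected markers of another type, which deeper nuclei reach more easily. Nuclei with at least 5 cell cycle UMIs had median depths of 11043 UMIs in the KO and 8633 in wild type. The medians of all tenocyte nuclei were 7486 and 6054 UMIs. The part of depth in this change was not tested.

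Outside the lists, Car10, a carbonic anhydrase-related gene, was at 499 CPM at E14.5, then 298 at E18.5, 190 at P5 and 37.0 in the KO, which was 8.05-fold below wild type of that age (5.49 to 12.3). It was detected in 130 of 407 wild-type and 4 of 80 KO nuclei and had a ratio of 1.19 in other connective tissue nuclei. Crip1 (173 and 3 UMIs) and Pdlim1 (172 and 3 UMIs), both LIM domain genes, were 13.9-fold (4.67 to 67.9) and 13.8-fold lower (4.64 to 67.5), and the actin-binding Tagln2 had 75 and 0 UMIs. All 3 were also low in other connective tissue nuclei, at ratios of 0.106, 0.142 and 0.172. Ckm, the muscle creatine kinase gene, was 12.4-fold lower (155 and 3 UMIs), while the 11 myonuclear markers summed to 1085 CPM in wild type and 1503 in the KO. The genes that led the higher side rested on 1 to 6 nuclei of the KO: Fa2h, Mrgprb1 and Mmrn1 on 1 nucleus each, Ankef1 and Ksr2 on 3 and Kcnh7 on 6.

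Markers of other cell types in tenocyte nuclei also differed between the E18.5 libraries. Macrophage markers summed to 283 CPM in wild type and 26.1 in the KO, and cartilage and bone markers to 423 and 237 CPM, with Acan at 133 and 42.5 CPM. Adipocyte markers summed to 5.94 and 129 CPM, led by Pparg, endothelial markers to 137 and 67.2 CPM, and myogenic progenitor markers to 321 and 436 CPM. Smooth muscle and pericyte markers (229 and 189 CPM), Schwann markers (23.8 and 20.6 CPM), nerve sheath markers (16.8 and 46.6 CPM) and fibroblast markers (968 and 1272 CPM) completed the lists. Without nuclei with cartilage and bone markers the calls of Col1a2, Col6a2, Sparc, Bgn, Igfbp7, Itga8, Ccn2 and Sox9 were lost, that of Jund fell under the count minimum, and without those with other cell types' markers the calls of Col1a2, Fgf10, Ltbp1, Itga8, Igfbp3, Klf2, Sox9 and Ccn2. With Tnmd not required Itga1, Itga8, Ltbp1 and Ccn2 lost theirs, with Ttn under 0.3% Ltbp1, Igfbp3 and Igfbp5, with 4 of the 7 genes Fgf10, with DESeq2 size factors Col1a2, and by the mean share per nucleus Col1a2 and Per2. Ankef1, Ksr2 and Kcnh7 lost theirs under at least 1 of these choices. The calls of Col1a1, Tnc, Tgfbi, Thbs3, Etv4, Dusp6, Fgf7, Piezo1, Itga5 and Car10 were kept under each choice of nuclei and scaling but thinning. Doublets were not removed, and beyond the counts without such nuclei their part in the result was not tested.

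Open chromatin at gene starts followed the RNA difference at some genes and not at others. At Col1a1 tenocyte nuclei had 121 ATAC counts per 1000000 in wild type and 142 in the KO (ratio 1.17, 0.864 to 1.55). At Tnc the values were 45.8 and 72.2 (ratio 1.58, 1.01 to 2.36), the direction opposite to that of its RNA. The sum over the 7 tendon genes was 205 and 225 (ratio 1.09, 0.864 to 1.37). At Etv4 there were 158 counts in wild type and 4 in the KO, or 36.4 and 10.7 per 1000000, 3.40-fold lower, with an interval of the ratio from 0.0792 to 0.768. The Etv4 start was also lower in other connective tissue nuclei, at a ratio of 0.538 (0.406 to 0.704). Thbs3 had a ratio of 0.525 (0.330 to 0.797), and 0.700 (0.612 to 0.799) in other connective tissue nuclei, while those of Tgfbi (0.820, 0.293 to 1.86) and Dusp6 (0.697, 0.354 to 1.24) had intervals that included 1. KO tenocyte nuclei held 373880 ATAC counts against 4343704 in wild type, and peaks were called apart in both libraries. Etv4, Thbs3, Tgfbi and Dusp6 were chosen for ATAC after their RNA values were seen.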

How the data were processed

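RNA and open chromatin were measured in the same nuclei of 5 libraries, 1 per group. Per the labels and the study's methods, the authors aligned reads with Cell Ranger ARC 2.0.0 to mm10. The deposited values are raw whole-number counts of UMIs per gene and of ATAC counts per peak, with peaks called in each library and no normalization. The authors' own comparisons were tests over nuclei, which are not replicates, and were not used here.

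Members and gene lists were chosen with earlier results of these data known. UMIs were summed over members and given as CPM with exact Poisson intervals. Ratios had exact conditional (Clopper-Pearson) intervals and shares exact binomial ones, at 95%. A gene was measured at 20 UMIs in either library and called at 2-fold. A gene at 0 was set to a floor of 3 UMIs of that library, and its ratio is a bound. These steps were tested on simulated data. PCR and pooling errors are not covered. The sort, the depth per library (344374 to 3030356 member UMIs, adults aside) and doublets, which were not removed, limit the comparisons. The sources used here do not state whether counting used strand, so antisense partners cannot be told apart.

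Gene coordinates printed here were from GENCODE vM21 (GRCm38). ATAC counts were summed over peaks within 1000 bases of the gene start interval given with the deposited counts, per 1000000 counts of the class. The sum over the 7 tendon genes was tested over libraries by an exact sign-flip permutation test. The adult library had been planned for it and was dropped at 0 counts. Tgfbi, Thbs3, Etv4, Dusp6, Dlk1 and Itga2 were added to the ATAC genes after their RNA values were seen. Alternatives were other marker limits, thinning to 1000 UMIs, TMM (edgeR 4.0.16) and DESeq2 1.42.0 size factors, which were used for scaling only, other count minimums, and members left out for other cell types' markers. Leaving out members with 2 or more cartilage and bone markers was added after the data were seen. Genes named were the 7 markers, Col1a1, Col1a2, Col3a1, Col12a1, Tnc and Dcn, then per list the 2 called higher and 2 called lower with the interval bound farthest from 1, then 6 and 6 outside the lists, and some of these genes are not reported here. Further members of the collagen, glycoprotein and FGF lists were named after their values were seen. Computations ran in Python 3.11.15 (scipy 1.17.1, numpy 2.4.6, pandas 2.3.3) and R 4.3.3.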

Additional observations from a re-analysis of the deposited data

Results flagged for a closer look

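In 2 of the named genes, both tenocyte and other connective tissue nuclei passed a 2-fold difference, in opposite directions. Nrros at P5 was at a ratio of at most 0.132 to E18.5 in tenocyte nuclei (0 and 43 UMIs, the latter in 10 nuclei) and at 2.29 in other connective tissue nuclei. Mmrn1 in the KO was at least 27.7-fold above wild type in tenocyte nuclei, where all 20 UMIs came from 1 nucleus, and at a ratio of 0.197 in other connective tissue nuclei. With 1 library per group these differences between the classes were not tested.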

How the results depend on the processing

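No paired analysis was possible because each group was 1 library. The planned comparison of adults with P5 was not run, since the adult library held 2 tenocyte nuclei. The shares moved with the rule. With 4 of 7 markers they were 0.683% at E14.5, then 7.63% at E18.5, 5.44% at P5 and 1.92% in the KO, and with Tnmd not required 2.30%, 11%, 7.51%, 3.38% and, in adults, 0.293%. Without nuclei that held other cell types' markers they were 6.28% at E18.5, 4.64% at P5 and 1.24% in the KO, and without those with cartilage and bone markers 7.35% at E18.5 and 5.57% at P5. Thinning gave 0.532%, 2.67%, 2.88% and 0.499% for E14.5, E18.5, P5 and the KO, and of nuclei with Ttn under 1% the shares were 2.43%, 15.1%, 12.1%, 3.57% and, in adults, 0.294%. Gene counts followed depth and limits. After thinning, 221 genes were higher and 92 lower at E18.5 than at E14.5, 86 and 111 at P5, and 105 and 243 in the KO, where many genes fell to the floor. With a minimum of 10 UMIs, 1569 were higher and 895 lower at E18.5, 638 and 1641 at P5, and 755 and 1622 in the KO. With no minimum, 1569 were higher and 2487 lower at E18.5, 1470 and 2136 at P5, and 2386 and 1689 in the KO. Called at the interval bound nearest 1, the counts were 107 and 136 at E18.5, 142 and 216 at P5, and 146 and 121 in the KO. Thinning reversed Fgf2 (log2 ratio -1.18) and Etv5 (0.15) for E18.5 over E14.5. Tead4 at P5 reversed without other cell types' markers (0.15) and Kcnh7 at P5 without cartilage and bone markers (-0.87). Col1a2 in the KO ranged down to a log2 ratio of -0.55 after thinning. The ATAC mean log2 ratio ranged from 1.16 to 1.60 with 1 library left out. Of the named genes called, 29 of 40 at E18.5, 20 of 35 at P5 and 23 of 42 in the KO kept their call in every setting on nuclei and scaling but thinning.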
